A study of Rattus norvegicus with 12 samples.

Results

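Liver gene expression under propiconazole was set directly against liver gene expression under triadimefon. The comparison used the 3 arrays titled for propiconazole and the 3 titled for triadimefon, 6 of the 12 arrays in the series, and every probe set except the control probe sets of the chip. The study dosed adult male Sprague-Dawley rats, 10 weeks old, by gavage every 24 h over an exposure of 72 h. RNA from each liver (5 µg) went onto its own Affymetrix Rat Genome 230 2.0 array, so each array is 1 animal and no animals were pooled. Propiconazole rats received 300 mg/kg/day and triadimefon rats 175 mg/kg/day, so compound and dose cannot be told apart in any difference given here. The control group also held 3 rats of the same strain, sex and age, and the labels do not say what was in their gavage. It serves only to show on which side of a difference the control level lay. A further group of 3 rats on myclobutanil (300 mg/kg/day) entered the estimate of spread. It also entered the normalization, the filter on dim probe sets and the choice of probe set per gene, and was compared with nothing.

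Propiconazole and triadimefon are triazole fungicides, which block the fungal form of Cyp51, the sterol 14-demethylase. In propiconazole the triazole hangs from a dioxolane ring, whereas in triadimefon it sits next to a ketone and an ether-linked chlorophenyl group. In mammalian liver, sterol and fatty acid synthesis genes are driven by SREBP transcription factors, whose cleavage responds to the sterol content of the cell and, for SREBP-1c, to insulin and feeding. Foreign compounds induce drug-metabolising enzymes through the nuclear receptors CAR and PXR and, for planar aromatic ligands, through AhR. The circadian clock couples the activators Bmal1, Clock and Npas2 to the repressors Per and Cry, and its output factors Dbp, Hlf and Tef bind D-box elements in metabolic genes.

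Values are the authors' deposited log-like score per probe set, whose log base and centring are not given, so differences are in those units and no fold is stated. Unless another pair is named, each difference is propiconazole minus triadimefon. After 9313 dim probe sets were left out, 21729 were tested, covering 11842 genes by 1 probe set each. All 16 tested hepatocyte markers, albumin (Alb) among them, lay in the brightest 5% of tested probe sets. Array-to-array correlations over all tested probe sets ran from 0.97 to 0.979 within propiconazole, from 0.966 to 0.982 within triadimefon, and from 0.958 to 0.983 for the 9 pairs across the compounds, so the ranges overlapped. These correlations share the probe sets and their base brightness and are descriptive. Myclobutanil replicate 1 stood apart, with a deposited array median of 0.157 against 0.0182 to 0.0552 in the other arrays.

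No probe set separated propiconazole from triadimefon in limma after Benjamini-Hochberg adjustment (0 of 21729, 0%), and the smallest adjusted p was 0.431. At an unadjusted limma p under 0.05 there were 803 probe sets (3.7%), 331 higher (1.52%) and 472 lower (2.17%) with propiconazole. In this fit the share of 3.7% does not exceed what a level of 0.05 would give with no difference anywhere. Leaving out myclobutanil replicate 1, which lies outside the pair, raised the count of 803 to 1510, and leaving out propiconazole replicate 2 brought it to 529. The count was 1612 without the myclobutanil group and 1630 with only the propiconazole and triadimefon arrays. The counts of 1510, 1612 and 1630 are more than a level of 0.05 would give, while 529 is not. Whether small p-values are in excess thus depended on the arrays in the fit. The adjusted count was 0 or 1 with any 1 array left out, and 45 when limma weighted the arrays by quality. A difference that misses the threshold does not show that the compounds act alike, so intervals are given. The median half-width of the 95% interval was 0.141 units, and for 95.4% of probe sets the whole interval lay within 0.5 units of 0. Point differences exceeded 0.5 units for 62 probe sets, 21 higher and 41 lower with propiconazole. The plot of all probe sets shows those that lie farthest from 0, many of them lipid synthesis genes below the line.

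**Figure D1:**
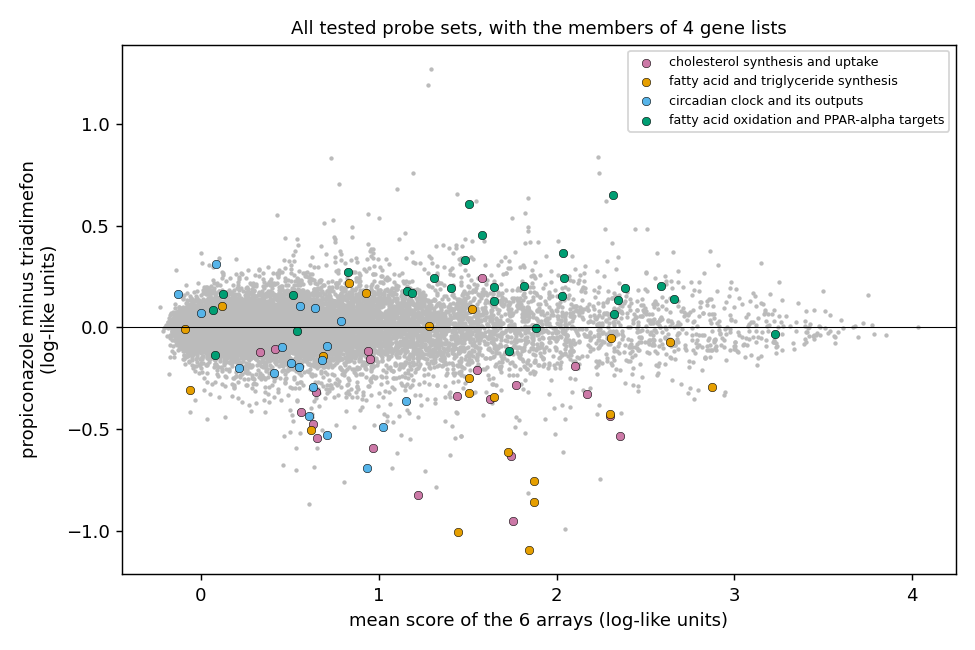
Each point is 1 tested probe set, with its mean over the 6 arrays on the horizontal axis and propiconazole minus triadimefon on the vertical axis, both in deposited log-like units. Coloured points are members of 4 gene lists. None of the 21729 points passed the adjusted test, and 62 lay beyond 0.5 units.

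Against control the same fit called 311 probe sets (1.43%) for propiconazole and 167 (0.769%) for triadimefon. Both contrasts use the same 3 control arrays, and the doses differ, so the counts are set side by side with no comparison. They moved widely with single arrays. The propiconazole count was 54, 43 and 36 without control replicate 1, 2 or 3, 49, 170 and 46 without propiconazole replicate 1, 2 or 3, 152 without triadimefon replicate 3 and 969 without myclobutanil replicate 1. The triadimefon count was 10, 58 and 15 without control replicate 1, 2 or 3, 60, 6 and 51 without triadimefon replicate 1, 2 or 3, and 611 without myclobutanil replicate 1. Among the 117 genes picked for naming, 27 were called for propiconazole against control. Of them, 9 (Asl, Por, Ces2c, Ppcs, Mrpl47, Aldh1a1, Rprm, Stac3 and Npas2) stayed called with each of the 12 arrays left out in turn. For triadimefon 18 were called, and 3 (Por, Rprm and Npas2) stayed called in the same way. Each gene counts here by its brightest probe set only. The others lost the call without at least 1 array of control or of a treated group, with adjusted p reaching at most 0.189 for propiconazole and 0.165 for triadimefon.

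Genes of cholesterol synthesis and uptake leaned lower under propiconazole than under triadimefon. Of 21 tested members of 26 listed, 0 passed the adjusted test, while 9 were lower and 0 higher at an unadjusted limma p under 0.05, beside 2.1% lower and 1.6% higher over all genes. The difference was below 0 for 20 of 21 members, beside 46.4% of all genes, and the median was -0.338 beside 0.00452 over all genes. The count of 9 went to 14 without triadimefon replicate 1 and to 5 without triadimefon replicate 3. In 10 members the 3 propiconazole livers lay wholly below the 3 triadimefon livers, beside 6.44% of all genes. The list was singled out after its values were seen, and its genes share their regulators, so their number is no count of independent observations.

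Msmo1, the sterol C4-methyl oxidase that acts after Cyp51, stood at 1.07, 1.08 and 1.67 in the propiconazole livers, 1.97, 2.11 and 2.6 in the triadimefon livers and 1.63, 1.98 and 1.66 in the controls. All 3 propiconazole livers lay below all 3 triadimefon livers, and the third propiconazole liver was the highest of its group. The difference was -0.948 (SE 0.277, 95% interval -1.556 to -0.341, limma adjusted p = 1). Idi1, the isopentenyl-diphosphate isomerase, was at 0.628, 0.774 and 1.02 with propiconazole, 1.36, 1.49 and 2.04 with triadimefon and 1.08, 1.34 and 0.896 in controls. Its groups did not overlap either, with 1 control within the propiconazole range and the others in the gap. The difference was -0.822 (SE 0.271, 95% interval -1.416 to -0.228), and a second probe set of Idi1 gave -0.514.

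Cyp51, the mammalian counterpart of the fungicides' target, stood at 2.05, 1.89 and 2.31 with propiconazole, 2.57, 2.42 and 2.86 with triadimefon and 2.03, 2.5 and 2.17 in controls. The lowest triadimefon liver was above the highest propiconazole liver, while 1 control liver was among the triadimefon values and the others were not. The difference was -0.533 (SE 0.152, 95% interval -0.867 to -0.198, limma adjusted p = 1), and the second Cyp51 probe set gave -0.342. Stard4, a cytosolic sterol carrier, had the smallest p of the list. Its levels were 0.501, 0.313 and 0.247 with propiconazole, 0.757, 0.756 and 0.793 with triadimefon and 0.569, 0.738 and 0.793 in controls. The triadimefon livers lay within the upper part of the control range and the propiconazole livers below all controls. The difference was -0.415 (SE 0.0761, 95% interval -0.582 to -0.248, limma adjusted p = 0.431), and its other probe sets gave -0.196 and -0.167. Stard4 and Acat2, the cytosolic acetoacetyl-CoA thiolase (-0.543), were among the 45 probe sets called with array weights.

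Sqle, squalene epoxidase, showed another position of the controls, at 0.415, 0.615 and 0.121, against 0.483, 0.65 and 0.885 with propiconazole and 0.925, 1.31 and 1.55 with triadimefon. Here the triadimefon livers were above every control and the propiconazole livers reached from within to above the control range. The difference between compounds was -0.591 (SE 0.189). Fdft1, squalene synthase (-0.338), Tm7sf2, a sterol reductase (-0.631), and Nsdhl, a sterol dehydrogenase (-0.19), complete the 9. Nsdhl fell by 0.418 under propiconazole against control (limma adjusted p = 0.0299, up to 0.124 with any single control or propiconazole array left out), and stood at -0.228 for triadimefon (adjusted p = 0.241). The one member above 0 was Insig2, an ER anchor that retains the SREBP complex, at 0.244. Over the list the median against control was -0.17 for propiconazole and 0.182 for triadimefon, from contrasts that share the control arrays.

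Fatty acid and triglyceride synthesis genes showed the same lean. All 21 listed genes were tested, and 0 passed the adjusted test. At an unadjusted limma p under 0.05, 9 were lower (Elovl6, Acss2, Fasn, Acly, Acaca, Srebf1, Scd, Fads1 and Pnpla3) and 1 was higher, Agpat2, an acyltransferase of phosphatidic acid synthesis (0.171). Over all genes 2.1% were lower and 1.6% higher at that level. For Agpat2 all treated livers lay below all controls, triadimefon farther. It stood at -0.229 against control for propiconazole (limma adjusted p = 0.155) and fell by 0.4 under triadimefon (adjusted p = 0.0254). The latter call was lost without any control or triadimefon array, with adjusted p up to 0.122. The median difference was -0.292, beside -0.127 without propiconazole replicate 1, -0.171 without triadimefon replicate 2 and -0.156 over every tested probe set of these genes. The median against control was -0.153 for propiconazole and 0.198 for triadimefon.

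Fasn, fatty acid synthase, stood at 0.549, 0.779 and 1.5 with propiconazole, 1.72, 1.84 and 2.28 with triadimefon and 1.77, 1.51 and 1.47 in controls. The propiconazole livers spread over almost 1 unit, with the third inside the control range, and none reached the triadimefon livers. The difference was -1.004 (SE 0.262, 95% interval -1.579 to -0.43, limma adjusted p = 0.9), and the second Fasn probe set gave -0.697, with overlapping groups. Scd, the stearoyl-CoA desaturase, had the lowest difference of all genes tested, at -1.09 (SE 0.388, 95% interval -1.943 to -0.242). Its levels were 0.714, 1.32 and 1.86 with propiconazole, 2.19, 2.43 and 2.56 with triadimefon and 2.68, 1.54 and 2.55 in controls. The compounds did not overlap, and the controls reached from the propiconazole range to above the triadimefon range. Scd is 1 of several close desaturase genes, and cross-hybridisation between them was not tested.

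Acly, ATP-citrate lyase, which supplies cytosolic acetyl-CoA, was at 1.02, 1.44 and 1.88 with propiconazole, 2.16, 2.19 and 2.56 with triadimefon and 2.29, 1.83 and 1.99 in controls. As for Fasn, replicate 1 of propiconazole was lowest and replicate 3 highest, and the groups did not overlap. The difference was -0.855 (SE 0.255). Acss2, which makes acetyl-CoA from acetate, was at 1.36, 1.41 and 1.72 with propiconazole, 2.1, 2.2 and 2.45 with triadimefon and 1.58, 1.83 and 1.54 in controls. Its difference was -0.751 (SE 0.187, limma adjusted p = 0.769). Elovl6, the elongase of palmitate, stood at 0.265, 0.347 and 0.499 with propiconazole, 0.681, 0.767 and 1.17 with triadimefon and 0.525, 0.43 and 0.565 in controls. For Acss2 and Elovl6 the triadimefon livers lay above all control livers, while the propiconazole livers overlapped the controls. The Elovl6 difference was -0.502 (SE 0.116) and its second probe set gave -0.416.

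Srebf1, the gene of SREBP-1, stood at 1.29, 1.34 and 1.64 with propiconazole, 1.71, 2.28 and 2.11 with triadimefon and 2.11, 1.99 and 1.92 in controls, a difference of -0.61 (SE 0.208). The propiconazole livers were below all others for this gene, with a narrow gap to triadimefon replicate 1. A second Srebf1 probe set gave -0.311 with overlapping groups. Acaca, acetyl-CoA carboxylase, differed between its probe sets, at -0.339 for the brighter and -0.05 for the dimmer. Thrsp, Pklr and Me1, which respond to carbohydrate and thyroid hormone in liver, stood at -0.292, 0.091 and 0.009, none at the unadjusted level. The plot of lipid genes by liver shows the order of groups gene by gene.

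**Figure D2:**
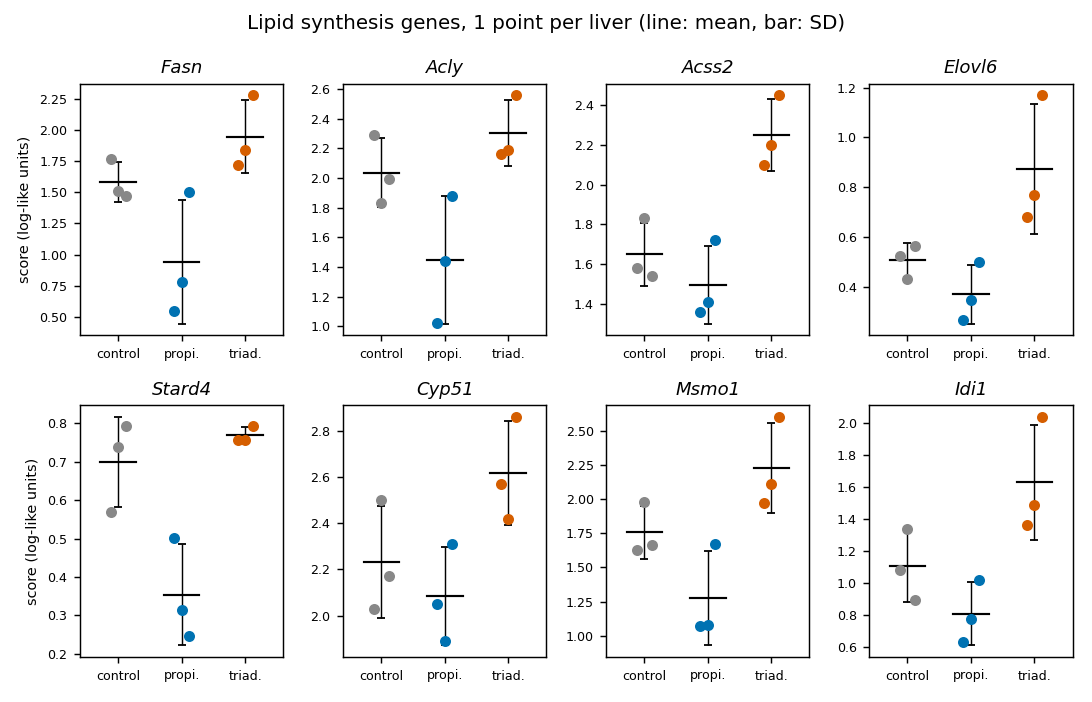
Normalised log-like level (vertical axis) of 8 lipid synthesis genes in each liver, for control, propiconazole and triadimefon (horizontal axis); dots are single livers, the line is the mean and the bar the SD of 3. In all 8 panels the highest propiconazole liver lies below the lowest triadimefon liver, and none of the 8 differences passed the adjusted test. Vertical axes differ between panels and do not start at 0.

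Promoters of 4 of these genes are shown to set their letters beside those of all genes. The RefSeq sequences (GRCr8) run from 250 bases before to 50 after the start of the gene, 300 bases in all. Capitals mark CCAAT, or ATTGG where the match is on the other strand; this element binds NF-Y, a usual partner of SREBP. Msmo1 (chr16:29746863-29747162, + strand) holds CCAAT 173, 109 and 68 bases before its start. Idi1 (chr17:66547475-66547774, - strand) holds it 66 and 35 bases before, Acly (chr10:85963582-85963881, - strand) 71 bases before, and Cyp51 (chr4:30991443-30991742, + strand) has no match in this window.
Msmo1: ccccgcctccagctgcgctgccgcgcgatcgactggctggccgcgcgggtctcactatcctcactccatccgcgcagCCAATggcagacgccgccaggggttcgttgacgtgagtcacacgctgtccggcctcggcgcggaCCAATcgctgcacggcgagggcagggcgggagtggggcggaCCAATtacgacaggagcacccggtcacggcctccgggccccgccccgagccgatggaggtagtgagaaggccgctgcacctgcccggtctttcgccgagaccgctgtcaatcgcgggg
Idi1: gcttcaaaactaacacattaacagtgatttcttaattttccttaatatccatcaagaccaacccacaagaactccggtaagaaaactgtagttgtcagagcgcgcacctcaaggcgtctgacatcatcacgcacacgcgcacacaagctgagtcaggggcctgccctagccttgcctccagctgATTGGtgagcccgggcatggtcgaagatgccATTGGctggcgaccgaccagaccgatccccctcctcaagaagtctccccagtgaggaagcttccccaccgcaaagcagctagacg
Acly: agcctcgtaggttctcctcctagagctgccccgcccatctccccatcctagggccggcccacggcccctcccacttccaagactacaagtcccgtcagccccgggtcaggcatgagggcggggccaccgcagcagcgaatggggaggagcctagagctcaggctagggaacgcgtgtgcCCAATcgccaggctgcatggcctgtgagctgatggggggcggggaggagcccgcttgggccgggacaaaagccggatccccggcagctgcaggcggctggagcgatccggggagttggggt
Cyp51: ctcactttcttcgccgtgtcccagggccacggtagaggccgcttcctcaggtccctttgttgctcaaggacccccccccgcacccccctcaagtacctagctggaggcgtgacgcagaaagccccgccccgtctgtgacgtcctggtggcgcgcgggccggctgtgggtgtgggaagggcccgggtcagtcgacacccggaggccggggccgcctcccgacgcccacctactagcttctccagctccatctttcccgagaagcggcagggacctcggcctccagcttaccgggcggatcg
CCAAT was found in 14 of 17 cholesterol genes with a promoter entry (82.4%) and in 11 of 16 fatty acid synthesis genes (68.8%), beside 39.6% of all 27457 genes with an entry. The sterol element searched as TCACNCCAC was found in 0 of either list, beside 1.25% of all. CACGTG was found in 2 of 17 and 1 of 16 (7.08% of all), TGACNNNGC in 4 of 17 and 4 of 16 (13.1%), and GCGTG in 11 of 17 and 7 of 16 (32.4%). The DR4 repeat of AGTTCA, bound by CAR and PXR (0.0146% of all), and the ER stress element ERSE (0.0765%), which contains CCAAT, were found in 0 members. All motifs were searched on both strands. The part of base composition in these shares was not tested, and a match is letters in a window and not a bound site.

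Circadian genes leaned lower as well, and Hlf had the smallest p of any list member. Of 19 tested members of 23 listed, 0 passed the adjusted test, 7 were lower (Hlf, Per3, Usp2, Per2, Dbp, Cry2 and Wee1) and 1 higher (Bmal1) with propiconazole at an unadjusted limma p under 0.05, beside 2.1% lower and 1.6% higher over all genes. The median difference was -0.173 (-0.111 without propiconazole replicate 2 and -0.115 without triadimefon replicate 2), and in 9 members the propiconazole livers lay wholly below the triadimefon livers, beside 6.44% of all genes. The count of 7 rose to 11 without myclobutanil replicate 1, where the median was -0.177. Leaving out that array changes the normalization and the filter as well as the spread estimate. Against control the list medians were 0.0495 for propiconazole and 0.275 for triadimefon. The hour at which each liver was taken is not in the labels, so its part in these differences was not tested.

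Hlf, a D-box binding output factor, stood at 0.384, 0.45 and 0.508 with propiconazole, 1.07, 0.867 and 0.99 with triadimefon and 0.712, 0.808 and 0.466 in controls. The compounds were apart by more than either spread, with the controls in the gap or among the propiconazole livers. The difference was -0.527 (SE 0.0922, 95% interval -0.729 to -0.325, limma adjusted p = 0.431), and the other probe sets gave -0.534 and -0.207. Per2, a core repressor, was at 0.487, 0.461 and 0.805 with propiconazole, 1.19, 1.42 and 1.21 with triadimefon and 0.424, 0.533 and 0.107 in controls. Triadimefon livers were above all others, while 2 propiconazole livers lay within the control range and 1 above it. The difference was -0.691 (SE 0.21), but a second Per2 probe set gave only -0.082.

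Per3, another member of the Per family, was at 0.12, 0.172 and 0.0614 with propiconazole, 0.358, 0.316 and 0.271 with triadimefon and 0.0041, 0.024 and 0.031 in controls. The 3 groups were in sequence without overlap, control lowest and triadimefon highest, at levels near the dim end. The difference was -0.197 (SE 0.0368, limma adjusted p = 0.431), and a second Per3 probe set gave -0.032. Against control Per3 rose by 0.296 under triadimefon (limma adjusted p = 0.00923, up to 0.0513 without control replicate 1 or triadimefon replicate 2) and stood at 0.098 for propiconazole (adjusted p = 0.245).

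Dbp stood at 0.475, 0.697 and 1.16 with propiconazole, 1.41, 1.43 and 0.961 with triadimefon and -0.0219, 0.0688 and 0.138 in controls. Every treated liver was above every control, and propiconazole replicate 3 exceeded triadimefon replicate 3, so the compounds overlapped. The difference between them was -0.489 (SE 0.161). Dbp rose by 1.21 under triadimefon (limma adjusted p = 0.0107, up to 0.0633 without control replicate 1 or 3 or triadimefon replicate 2), and propiconazole stood at 0.717 (adjusted p = 0.0583). Usp2, a deubiquitinase with a strong daily rhythm, gave -0.294 and -0.426 at its probe sets, neither with overlap between compounds. Cry2, counted among the lower genes at -0.173, gave 0.02 at its second, dimmer probe set. Wee1, a clock-controlled kinase of the G2/M checkpoint, gave -0.222 and -0.279, and rose by 0.43 under triadimefon against control (limma adjusted p = 0.0376). That call was lost without any control or triadimefon array or propiconazole replicate 1, with adjusted p up to 0.158. The second Wee1 probe set also rose under triadimefon, by 0.522 (limma adjusted p = 0.0176), and was not tested with single arrays left out.

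Bmal1, the activator, ran the other way, at 0.384, 0.292 and 0.0432 with propiconazole, -0.135, -0.0775 and 0.00466 with triadimefon and 0.679, 0.529 and 0.612 in controls. Both compounds lay below every control, triadimefon farther. The difference was 0.309 (SE 0.0941), and Bmal1 fell by 0.676 under triadimefon (limma adjusted p = 0.0122, up to 0.0645 without control replicate 1 or 3 or triadimefon replicate 2). Npas2, its relative and a partner of Bmal1, fell by 0.716 under propiconazole and by 0.88 under triadimefon (limma adjusted p = 0.00661 and 0.00476), with 0.164 between the compounds (95% interval -0.036 to 0.364). Nr1d1, the Rev-erb alpha repressor, stood at -0.09 (95% interval -0.487 to 0.307), and Nr1d2, its paralog, at -0.359 (95% interval -0.79 to 0.073). The second Nr1d2 probe set gave -0.235 (95% interval -0.425 to -0.045), with no overlap between compounds. In the plot of clock genes by liver, the step from propiconazole to triadimefon runs up in the Per, Dbp and Hlf panels and down in the Bmal1 panel.

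**Figure D3:**
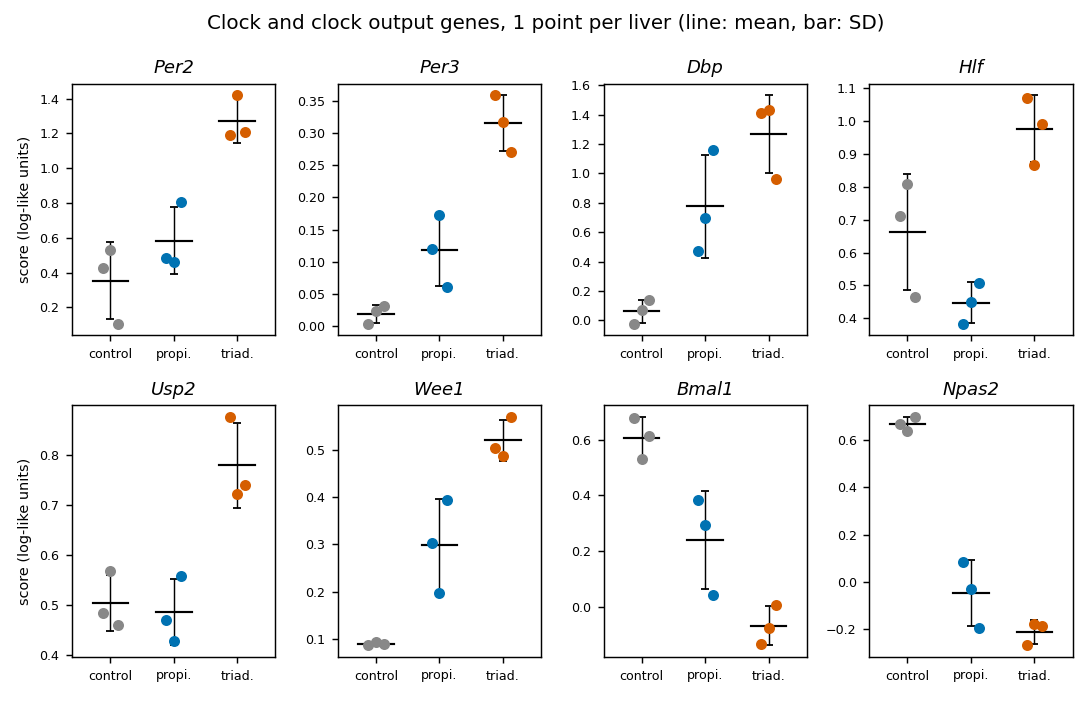
Normalised log-like level (vertical axis) of 8 circadian genes in each liver, for control, propiconazole and triadimefon (horizontal axis); dots are single livers, the line is the mean and the bar the SD of 3. The triadimefon mean is above the propiconazole mean for Per2, Per3, Dbp, Hlf, Usp2 and Wee1 and below it for Bmal1 and Npas2. Vertical axes differ between panels and do not start at 0.

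The Per2 promoter (chr9:99496944-99497243, - strand, GRCr8, RefSeq) is shown because it was the only one of 16 clock genes with an entry that held the D-box TTATGTAA, 192 bases before its start. Capitals mark that D-box and CCAAT, which lies 163 and 100 bases before the start.
Per2: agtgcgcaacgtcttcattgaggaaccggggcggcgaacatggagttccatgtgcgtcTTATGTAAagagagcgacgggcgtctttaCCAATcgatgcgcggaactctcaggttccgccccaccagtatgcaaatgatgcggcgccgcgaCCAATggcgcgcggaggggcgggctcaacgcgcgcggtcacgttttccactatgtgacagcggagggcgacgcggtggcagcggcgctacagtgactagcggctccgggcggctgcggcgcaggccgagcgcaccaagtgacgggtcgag
TTATGTAA occurs in 0.958% of all promoters, and the looser TTATGNAA, which includes it, in 3.86% and in 1 of the 16. TTATGTAA was found in 0 of the cholesterol and fatty acid synthesis lists, and TTATGNAA in 1 and 0. In the clock list CACGTG, the E-box bound by Bmal1 with Clock, was found in 3 of 16 (18.8%, beside 7.08% of all), CCAAT in 8, GCGTG in 6, TGACNNNGC in 2, and the other motifs in 0.

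Fatty acid oxidation and PPAR-alpha target genes leaned the opposite way from synthesis. Of 28 tested members of 34 listed, 0 passed the adjusted test, and at an unadjusted limma p under 0.05 4 were higher (Plin2, Angptl4, Cpt2 and Eci2) and 1 lower (Cd36), beside 1.6% and 2.1% over all genes. The difference was above 0 for 23 of 28 members, beside 53.6% of all genes, and the median was 0.174. In 7 members the propiconazole livers lay wholly above the triadimefon livers, beside 6.63% of all genes. Leaving out propiconazole replicate 3 raised the count of 4 to 7, and leaving out propiconazole replicate 2 brought the median to 0.102. Plin2, which coats lipid droplets, was at 2.64, 2.48 and 2.8 with propiconazole, 1.82, 1.98 and 2.15 with triadimefon and 2.38, 2.27 and 2.14 in controls. The controls lay between the compounds, touching triadimefon. The difference was 0.652 (SE 0.183, 95% interval 0.249 to 1.054, limma adjusted p = 1), and a second, much dimmer Plin2 probe set gave 0.04.

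Angptl4, an inhibitor of lipoprotein lipase, was at 2.15, 1.7 and 1.59 with propiconazole, 1.38, 1.07 and 1.18 with triadimefon and 0.998, 1.34 and 1.46 in controls, a difference of 0.605 (SE 0.182). Its propiconazole livers were above all others, and triadimefon lay within the control range. Cpt2, the inner carnitine palmitoyltransferase, was at 0.332 between the compounds and rose by 0.569 under propiconazole against control (limma adjusted p = 0.0388). That call was lost without any control or triadimefon array or without propiconazole replicate 1 or 2, with adjusted p up to 0.163. Cpt1a, the outer and rate-limiting enzyme, stood at 0.064, and Cyp4a1, a classical PPAR-alpha target, at -0.002 (95% interval -0.223 to 0.218). Cyp4a1 has close paralogs that its probe set may read.

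**Figure D4:**
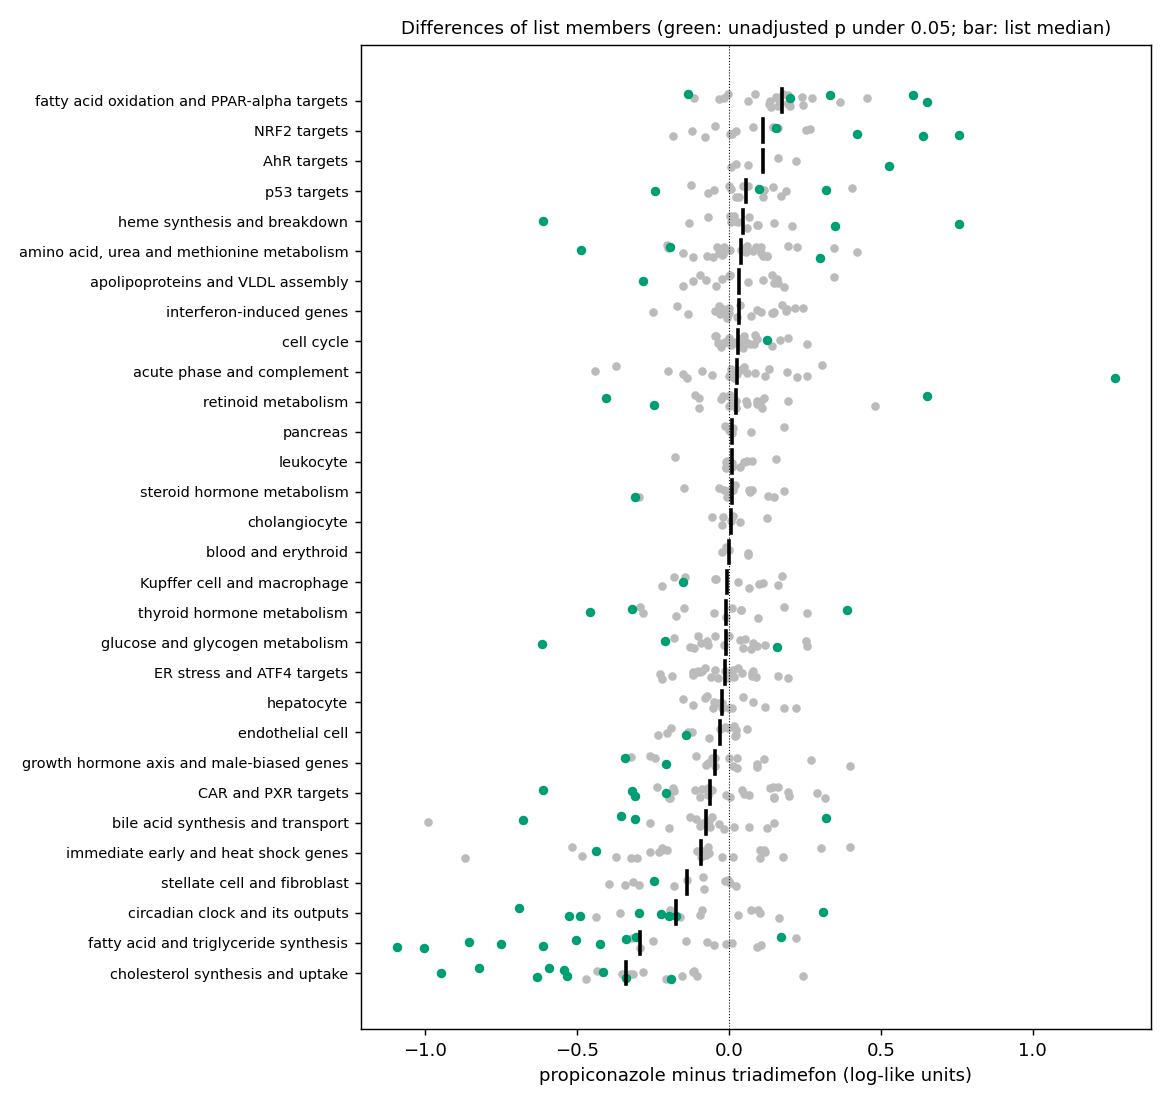
Propiconazole minus triadimefon (in log-like units) for every tested member of the gene lists shown; each dot is a gene, green dots have an unadjusted limma p under 0.05, and black bars are list medians. The cholesterol, fatty acid synthesis and clock medians lie at -0.338, -0.292 and -0.173, and fatty acid oxidation and NRF2 targets at 0.174 and 0.112. No single gene passed the adjusted test.

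The CAR and PXR targets that both compounds raised against control overlapped between the compounds. Of 30 tested CAR and PXR targets of 38 listed, 0 differed by the adjusted test, 0 were higher and 4 lower at an unadjusted limma p under 0.05 (1.6% and 2.1% over all genes), and the median was -0.0622. Against control 6 were called higher for propiconazole (0.996% of all genes were) and 6 for triadimefon (0.557%), namely Ces2c, Por, Aldh1a1, Cyp3a23-3a1, Gsta3 and Ugt2b1. Whether the Ugt2b1 calls last with single arrays left out was not tested. Por, the reductase that feeds electrons to cytochromes P450, was at 1.74, 1.95 and 1.86 with propiconazole, 2.01, 2.24 and 1.9 with triadimefon and 1.11, 0.665 and 0.647 in controls. All treated livers were above all controls and the compounds overlapped. Por rose by 1.04 and 1.24 against control (limma adjusted p = 0.00642 and 0.00476), and the difference between compounds was -0.197 (95% interval -0.476 to 0.082). A second, dimmer Por probe set was not called against control, at 0.773 and 0.71 (limma adjusted p = 0.167 and 0.241). There triadimefon replicate 1 (0.621) lay below control replicate 1 (0.793), and the difference between compounds was 0.063.

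Ces2c, a carboxylesterase, was at 2.34, 2.51 and 1.9 with propiconazole, 1.66, 2.21 and 2.01 with triadimefon and 0.94, 0.631 and 0.742 in controls. It rose by 1.48 under propiconazole (limma adjusted p = 0.00582) and by 1.19 under triadimefon (adjusted p = 0.0123, up to 0.0756 without any control array or triadimefon replicate 2 or 3), with 0.289 between them (95% interval -0.098 to 0.675). Gsta3, a glutathione transferase, was at 1.46, 1.32 and 1.42 with propiconazole, 1.59, 1.78 and 1.05 with triadimefon and 0.18, 0.154 and -0.0413 in controls. The triadimefon livers were the more spread, and the difference of -0.072 (95% interval -0.465 to 0.321) turned to 0.08 without triadimefon replicate 2. Cyp3a23-3a1, the main PXR-inducible P450 of the list, stood at -0.07 (95% interval -0.2 to 0.061). Ces2c, Gsta3, Aldh1a1 and Cyp3a23-3a1 belong to families of close paralogs, so their probe sets may read more than 1 gene.

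The 4 members lower with propiconazole at the unadjusted level were Alas1, Slco1a4, Cyp2a2 and Sult1e1. Alas1, the first enzyme of heme synthesis, stood at 1.79, 1.68 and 1.72 with propiconazole, 2.17, 2.39 and 2.46 with triadimefon and 1.83, 1.78 and 1.17 in controls. Triadimefon livers were above all others, and propiconazole livers lay among the controls. The difference was -0.611 (SE 0.16, 95% interval -0.963 to -0.259, limma adjusted p = 0.9), and against control 0.134 for propiconazole and 0.745 for triadimefon (adjusted p = 0.762 and 0.0649). Slco1a4, an organic anion transporter, was at -0.32, Cyp2a2, a testosterone hydroxylase, at -0.208, and Sult1e1, the estrogen sulfotransferase, at -0.308.

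Genes of heme breakdown were mixed. Hmox1, heme oxygenase 1, was at 2.69, 2.24 and 2.92 with propiconazole, 1.42, 2.29 and 1.86 with triadimefon and 0.862, 0.946 and 0.76 in controls. Triadimefon replicate 2 overlapped propiconazole replicate 2, and all treated livers were above the controls. Between compounds the difference was 0.758 (SE 0.29, 95% interval 0.122 to 1.395, limma adjusted p = 1). Hmox1 rose by 1.76 under propiconazole against control (limma adjusted p = 0.0199, up to 0.0922 without any control array or propiconazole replicate 1 or 3), while triadimefon stood at 1.001 (adjusted p = 0.165). Blvrb, a biliverdin reductase, was at 1.45, 1.49 and 1.45 with propiconazole, 1.08, 1.13 and 1.13 with triadimefon and 0.971, 0.929 and 1.03 in controls. Its 3 groups did not overlap and were tight. The difference was 0.349 (SE 0.0824, 95% interval 0.168 to 0.53, limma adjusted p = 0.67). Hmox2, the constitutive heme oxygenase, stood at 0.065 and Blvra, the other biliverdin reductase, at -0.07, neither at the unadjusted level. Over the heme list of 16 tested genes, 2 were higher and 1 lower at the unadjusted level, beside 1.6% higher and 2.1% lower over all genes.

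NRF2 target genes, which answer oxidative and electrophilic stress, had 4 of 16 tested members higher (Hmox1, Akr7a3, Txnrd1 and Gsr), 0 lower, beside 1.6% higher and 2.1% lower over all genes, and a median of 0.112. This count was 0 without propiconazole replicate 3, 0 without triadimefon replicate 1 and 1 without triadimefon replicate 3. The median was 0.0289 without propiconazole replicate 3, 0.0635 without triadimefon replicate 3 and 0.171 without triadimefon replicate 2. Akr7a3, an aflatoxin aldehyde reductase, was the one with no overlap, at 1.95, 2.33 and 2.2 with propiconazole, 1.41, 1.79 and 1.37 with triadimefon and 1.43, 1.27 and 1.36 in controls. Nqo1 and Gclm, further NRF2 targets, stood at 0.161 and 0.267, not at the unadjusted level. Cyp1a1, the AhR-inducible P450, was at 1.08, 0.592 and 1.34 with propiconazole, 0.471, 0.354 and 0.61 with triadimefon and 0.0283, 0.0625 and 0.0556 in controls. The highest triadimefon liver slightly exceeded the lowest propiconazole liver, and all treated livers were above the controls. The difference was 0.527 (SE 0.176, 95% interval 0.142 to 0.912, limma adjusted p = 1). Cyp1a2, its liver-constitutive relative, stood at 0.222 (95% interval -0.079 to 0.523).

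**Figure D5:**
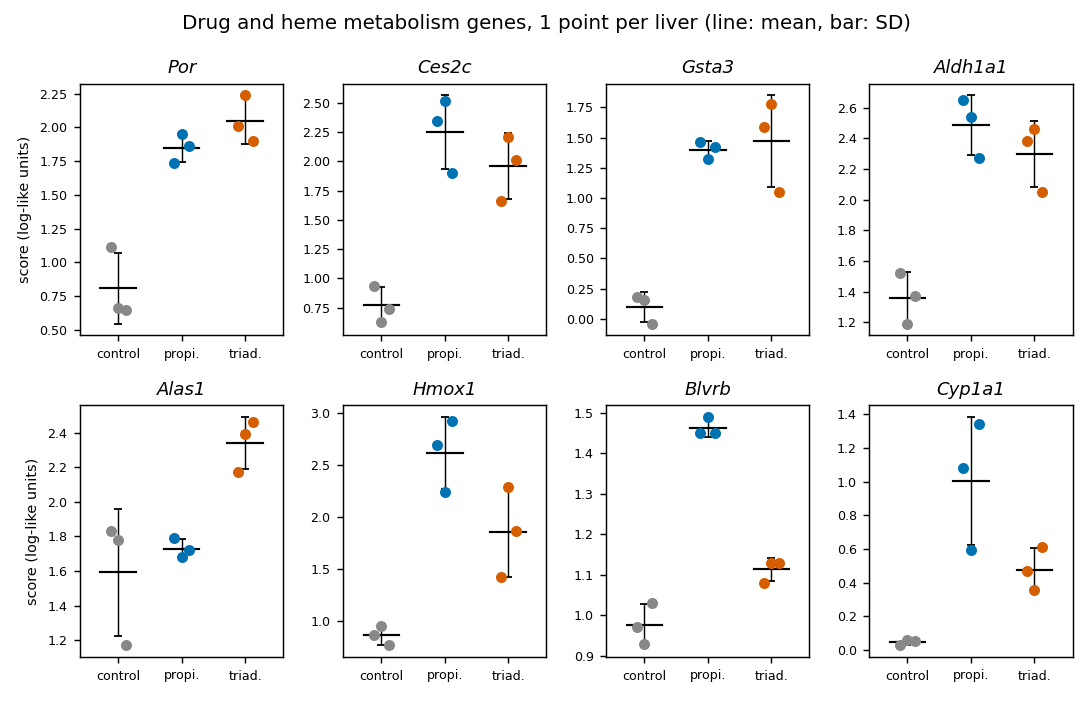
Normalised log-like level (vertical axis) of 8 drug metabolism and heme genes in each liver, for control, propiconazole and triadimefon (horizontal axis); dots are single livers, the line is the mean and the bar the SD of 3. Por, Ces2c, Gsta3 and Aldh1a1 overlap between the compounds and lie above the controls, while Alas1 is higher in the triadimefon livers and Blvrb in the propiconazole livers. Vertical axes differ between panels and do not start at 0.

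Genes of sterol export and bile acid transport were also listed. Abcg5 and Abcg8, which pair to form the biliary sterol exporter, were at -0.676 (SE 0.193) and -0.354 (SE 0.109), each without overlap between compounds. Abcg5 stood at 0.0713, 0.237 and 0.0695 with propiconazole, 0.549, 0.986 and 0.87 with triadimefon and 0.365, 0.253 and 0.0972 in controls, so the triadimefon livers were above all others. Cyp7a1, which catalyses the first step from cholesterol to bile acids, was at 2.2, 1.57 and 0.884 with propiconazole, 3.16, 1.81 and 2.66 with triadimefon and 1.41, 1.9 and 1.46 in controls. Its treated livers spread over more than 1 unit within each group, and the difference of -0.99 had a 95% interval of -2.025 to 0.045. Slco1a1, an organic anion uptake carrier, was at -0.308. The list of 20 tested genes had 1 higher and 3 lower at the unadjusted level, beside 1.6% and 2.1% over all genes, and a median of -0.0763.

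Among endocrine and retinoid genes, Thrb, the thyroid hormone receptor beta, was at 0.864, 0.803 and 0.787 with propiconazole, 1.42, 1.17 and 1.24 with triadimefon and 1.03, 1.15 and 1.07 in controls. The controls lay between the compounds with no overlap on either side. The difference was -0.458 (SE 0.0937, 95% interval -0.663 to -0.252, limma adjusted p = 0.507), and its other probe sets gave -0.303 and -0.176. Rdh16, a retinol dehydrogenase, stood at 0.653, and Cyp26a1, which clears retinoic acid, at -0.099 (95% interval -0.363 to 0.165). Cyp2c11, the male-specific testosterone hydroxylase, stood at 0.002 (95% interval -0.505 to 0.508), and its sign turned under other scalings, with -0.049 after median centring and -0.055 in the deposited values. Its livers were tight within propiconazole (SD 0.0384) and triadimefon (SD 0.0919). The fit's SE of 0.231 draws on all 4 groups.

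Several lists held few or no members at the unadjusted level, at which 1.6% of all genes were higher and 2.1% lower. ER stress (27 tested) and interferon-induced genes (24 tested) had 0 members at an unadjusted limma p under 0.05, with medians of -0.0144 and 0.0329. The cell cycle list (30 tested) had 1 higher, Aurka, a mitotic kinase, at 0.127. In the acute phase list (23 tested) 1 member was higher, A2m, alpha-2-macroglobulin, an acute phase protein of the rat. A2m was at 2.03, 1.82 and 1.93 with propiconazole, 0.81, 0.365 and 0.798 with triadimefon and 0.664, 0.869 and 0.602 in controls. The propiconazole livers stood far above every other liver in these groups, and this was the highest difference of all genes tested, 1.27. The fit's SE of 0.487 draws on all 4 groups, giving a 95% interval of 0.202 to 2.337 and a limma adjusted p of 1. Without myclobutanil replicate 3 the adjusted p was 0.0145, and without the whole myclobutanil group 0.0484, the only call in either fit. Serpina3n, another acute phase gene, stood at 0.223.

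Single genes outside the lists were chosen after their values were seen. Dhrs7l1, a short-chain dehydrogenase, was at 2.08, 2.07 and 1.46 with propiconazole, 1.14, 0.0634 and 0.833 with triadimefon and 2.1, 2.46 and 2.18 in controls. All propiconazole livers lay below the controls, 2 of them narrowly, and triadimefon livers lower still, with triadimefon replicate 2 far below the rest. The difference was 1.19 (SE 0.246, 95% interval 0.649 to 1.731, limma adjusted p = 0.507), and Dhrs7l1 fell by 1.57 under triadimefon (adjusted p = 0.016, up to 0.0783 without any control array or triadimefon replicate 2 or 3). Ppcs, which acts in coenzyme A synthesis, was at 1.94, 2.05 and 1.87 with propiconazole, 1.69, 1.5 and 1.56 with triadimefon and 1.21, 1.14 and 1.2 in controls. The 3 groups did not overlap, and the difference was 0.371 (SE 0.0878). Lpin2, a phosphatidate phosphatase, stood at -0.623 (SE 0.125), with 1.14, 0.841 and 1.28 under propiconazole, 1.73, 1.85 and 1.55 under triadimefon and 0.842, 0.883 and 0.859 in controls. The triadimefon livers were above all others, but its second, dimmer probe set gave -0.01. Il33, an alarmin cytokine, was at -0.502 and -0.441 at its 2 probe sets, neither overlapping. Slc16a1, a monocarboxylate carrier, stood at 0.434 (SE 0.106). Poteml2 was at 1.16, 0.883 and 1.39 with propiconazole, 0.357, 0.182 and 0.414 with triadimefon and 0.758, 0.768 and 0.657 in controls. Its controls lay in the gap between the compounds, and the difference was 0.83 (SE 0.143, limma adjusted p = 0.431). Nek7, a mitotic kinase, had the smallest p of all, at a dimmer one of its probe sets with a difference of 0.262. The smallest p among probe sets with no single gene belonged to 1382294_at, at -0.255 (limma adjusted p = 0.431).

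Markers of other liver cells were read beside these values. In bulk liver, fewer cells of a type and less RNA per cell cannot be told apart. The summed level of 15 endothelial markers was 9.29, 8.92 and 8.45 with propiconazole, 9.8, 9.52 and 10.3 with triadimefon and 10.9, 12.1 and 11.4 in controls. For this sum the groups were in sequence without overlap, and the exact permutation test between compounds gave p = 0.1, the smallest that 3 against 3 allows. Single markers were mixed, with 10 below 0, 5 above 0 and a median of -0.0297. At an unadjusted limma p under 0.05, 1 was lower and 0 higher, beside 2.1% and 1.6% over all genes. The lowest was Kdr, at -0.233, whose other probe set gave 0.023. Il33 and Lrat, which non-parenchymal liver cells express, also stood lowest with propiconazole and highest in controls. The part of the endothelial sum in their values was not tested. Stellate cell markers (13 tested) summed to 4.7, 5.38 and 5.82 with propiconazole, 5.77, 5.69 and 10.6 with triadimefon and 5.77, 7.55 and 6.04 in controls, with triadimefon replicate 3 far above the rest (exact permutation p = 0.3). Of these 13, 11 were below 0, with Lrat, which esterifies retinol in stellate cells, at -0.245 and Col1a1, a fibrillar collagen, at -0.294. Kupffer cell, cholangiocyte, leukocyte and blood sums overlapped between compounds (exact permutation p = 0.7 to 0.8), as did pancreas (p = 0.2) and hepatocyte sums (50.2 to 51.8 and 50.9 to 51.5). The score has no true zero, so no marker can be called absent.

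RNA quality was read from the control probe sets. The 3-prime minus 5-prime difference of GAPDH was 0.434 ± 0.106 (SD, n = 3) with propiconazole, 0.587 ± 0.212 with triadimefon and 0.659 ± 0.252 in controls (exact permutation p = 0.4 between compounds). For beta-actin it was 0.636 ± 0.0925, 0.838 ± 0.2 and 0.682 ± 0.202 (exact permutation p = 0.2). Both were lower with propiconazole on average, the groups overlapped, and their part in the gene differences was not tested.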

How the data were processed

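Liver RNA of 12 rats was read on 12 arrays, 3 per group. The values are the authors' deposited score per probe set, log-like. How they were summarised and normalized, and on what log base, is not given in the sources used here. The plan assumed a normal log table, so values were kept unconverted. Array medians spanned 0.138 in the deposited table. The median within-group SD was 0.0736, which is smaller, and the arrays were therefore quantile normalized. Myclobutanil replicate 1 had the highest deposited median, 0.157, beside 0.0182 to 0.0552 in the other arrays. Normalization, filter and choice of probe set used all 12 arrays.

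Of 31099 probe sets, 57 control probe sets and then the 30% dimmest (9313) were left out. By the platform annotation (possibly dated), 20826 probe sets had 1 gene, 436 had several and 9780 had none. Symbols came from a RefSeq GRCr8 table through the Entrez ID for 20758 and stayed for 68. Of the tested probe sets, 16078 had 1 gene; a gene was represented by its brightest.

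limma 3.58.1 (R 4.3.3) estimated a mean for each of the 4 groups over the 12 arrays (8 residual degrees of freedom), and variances were moderated with a trend on intensity. Tests were two-sided, with Benjamini-Hochberg adjustment over all 21729 probe sets and a call at an adjusted p under 0.05. The number of arrays limits the precision. The scripts were tested on simulated data. Figures used Python 3.11.15, pandas 2.3.3 and matplotlib 3.10.9. No array pair held identical values (0 pairs).

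The comparison, the 22 pathway and 8 marker lists and the naming rule were chosen with earlier results of these data known. The rule named called genes with the largest differences without overlap, up to 3 called members per list or, with none called, the 2 with the smallest p, and 21 fixed genes, of which 18 were tested. No gene was called, so 69 genes came from the list and fixed parts. Another 48, the 5 lists described first, the promoters and the motifs TCACNCCAC and TTATGNAA were chosen after their values were seen. Alternatives were median centring, the deposited values, no filter or 50% left out, fewer groups, no trend, robust moderation, array weights, a replicate block, every probe set of a gene, and each array left out. Their use on the contrasts with control, and on counts within lists, was added after seeing the data.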

Additional observations from a re-analysis of the deposited data

How the results depend on the processing

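Calls between the compounds were 0 in the reported fit and with median centring, the deposited values, no filter, a 50% filter, only the 6 arrays, no intensity trend and robust moderation. They were 1 without the myclobutanil group (1 higher, A2m) and 45 with array weights (11 higher, 34 lower), where myclobutanil replicate 1 had a weight of 0.0958 and the estimate of the weights did not fully converge. With 1 array left out they ran from 0 to 1, all higher. Probe sets at an unadjusted limma p under 0.05 numbered 803, and 1630 with only the 6 arrays, 1612 without the myclobutanil group, 2248 with array weights, and 529 to 1510 with 1 array left out. Calls against control went from 311 to 994 for propiconazole and from 167 to 642 for triadimefon without the myclobutanil group, to 1313 and 1028 with array weights, and with 1 array left out ran from 36 to 969 and from 6 to 611.

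The medians of the cholesterol, fatty acid synthesis, clock, fatty acid oxidation and NRF2 lists kept their sign under the 23 alternatives run, as did CAR and PXR targets (-0.0835 to -0.0106) and bile acid genes (-0.107 to -0.0669). Several of these settings change only the spread or the set tested and could not turn a sign. The cholesterol median stayed at -0.338 with no filter, no trend, robust moderation or a replicate block. Leaving out a control or myclobutanil array reached it only through normalization and filter (-0.333 to -0.343). The medians of ER stress (-0.0968 to 0.0306) and interferon-induced genes (-0.0265 to 0.084) did not. Members lower at the unadjusted level rose to 18 for cholesterol synthesis with array weights, and to 11 for the clock with array weights or without the myclobutanil group. Members higher in fatty acid oxidation rose to 9 with array weights. With 1 array left out the counts ran from 5 to 14 (cholesterol), 6 to 11 (clock), 3 to 7 (fatty acid oxidation) and 0 to 5 (NRF2 targets).

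Deviations of same-numbered arrays of the compounds correlated at 0.495 for replicate 1, -0.00855 for replicate 2 and 0.0283 for replicate 3. The reported fit treats the arrays as unpaired, and what the replicate 1 arrays may share was not tested. With the replicate number as a block, 0 probe sets were called between the compounds and 710 had an unadjusted limma p under 0.05. The fatty acid oxidation count was then 7, and calls against control were 121 and 87, beside 311 and 167 in the reported fit.

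Of 117 named genes, 107 never changed sign over the 22 or fewer alternatives each, several of which could not turn a sign. Cyp2c11 turned to -0.049 with median centring and -0.055 in the deposited values, and Gsta3 to 0.079 with array weights. With 1 array left out, the genes that turned ran from -0.029 to 0.246 (Epcam), -0.121 to 0.055 (Spp1), -0.047 to 0.002 (Klf1), -0.057 to 0.259 (Alas2), -0.08 to 0.103 (Cyp4a1), -0.043 to 0.051 (Cyp2c11), -0.143 to 0.091 (Abcc3), -0.284 to 0.08 (Gsta3), -0.026 to 0.234 (Nr1i2) and -0.252 to 0.111 (Nr1d1). The cause of these changes was not tested. With 3 livers a group, the median half-width of the 95% interval was 0.141 units, and the precision varied by probe set.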
